A study of Homo sapiens with 10 samples.

Results

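The stretch of 28S rRNA from position 4430 to 4659 was examined in RibOxi-seq libraries of PA1 cells, an established human line derived from an ovarian teratoma. It is defined by its first and last position and holds 230 of the 6939 positions counted in 18S and 28S rRNA, and 12 of the 106 known 2′-O-methylation sites listed for both rRNAs. The known sites are C4455, G4493, U4497, G4498, A4522, C4535, A4570, A4589, G4617, U4619, G4622 and G4636, numbered with the first 28S base as 0. In RibOxi-seq, rRNA is cut at random with the nuclease Benzonase, the last nucleotide is removed by oxidation and β-elimination, and the fragments are oxidized once more with periodate. Periodate destroys a 3′-end with free 2′ and 3′ hydroxyls, so it can no longer be ligated, whereas a 2′-O-methylated end is protected. Oxidized libraries were compared with control libraries from the same extracted RNA, which was cut with the nuclease but neither β-eliminated nor oxidized. On the NextSeq there were 3 control and 3 oxidized libraries, made from passage 6 cells for replicates 1 and 2 of each group, and from passage 4 cells for replicate 3. The MiSeq pilot had 2 control and 2 oxidized libraries of passage 7 cells. All libraries come from a single unperturbed cell line, and no label names separate cultures within a passage, so the spread between replicates may be technical.

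The A-loop is a hairpin of the large subunit rRNA that binds the CCA end of the transfer RNA in the A site of the peptidyl transferase center. The sarcin-ricin loop, which lies downstream in the same stretch, is where translation factors dock and where the toxins sarcin and ricin act. Methyl groups on the 2′ oxygen of rRNA riboses are mostly placed by box C/D snoRNPs, in which the snoRNA base-pairs with the rRNA and the fibrillarin protein methylates the nucleotide opposite a fixed place upstream of the snoRNA's box D. The neighbouring nucleotides U4497 and G4498 are the methylated residues of the A-loop.

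In hg19 (GRCh37) the stretch lies on the plus strand of an unplaced contig, from 117778 to 118007, inside the mature 28S rRNA. The reference base matched the listed base at all 12 known sites, which comprise 5 G, 3 A, 2 C and 2 U. The whole stretch is shown because the results concern single bases and their direct neighbours, with the 12 known sites in capitals and all other bases in lower case.
28S 4430 to 4659: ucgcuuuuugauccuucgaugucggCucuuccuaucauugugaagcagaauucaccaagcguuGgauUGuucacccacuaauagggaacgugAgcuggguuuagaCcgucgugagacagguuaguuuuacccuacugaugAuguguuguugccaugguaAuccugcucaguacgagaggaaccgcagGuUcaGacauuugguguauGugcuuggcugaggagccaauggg
The known sites are between 1 and 38 nt apart, with G4493, U4497 and G4498 within 6 nt, and likewise G4617, U4619 and G4622. The sarcin-ricin motif occupies 4598 to 4609, between A4589 and G4617, and holds no known site. A second copy of 28S on the same contig ends with position 4482, so reads at the first 53 positions, C4455 among them, cannot be assigned to one copy or the other.

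Total counts were 72458614 to 80964624 in the NextSeq control libraries, 12293410 to 13694386 in the NextSeq oxidized libraries, 30392418 to 44061905 in the MiSeq control libraries, and 1353768 and 1568883 in the MiSeq oxidized libraries. The study's methods describe these values as numbers of reads, but the deposited counts run mostly in steps of 50, and a step of 50 is taken here to stand for about 1 read. The reason for the steps is not given in the sources used here, and every interval and floor in steps rests on this assumption. A count of 0 then allows up to 3 steps (150 counts), which is 1.85 to 2.07 counts-per-million (CPM, counts divided by the library total) in NextSeq control, 10.95 to 12.2 CPM in NextSeq oxidized, 3.40 to 4.94 CPM in MiSeq control, and 95.6 and 111 CPM in MiSeq oxidized libraries. These limits, and the intervals given below, cover counting error only. Positions without counts numbered 0 in every NextSeq control library, 46 to 50 in NextSeq oxidized, 12 and 14 in MiSeq control, and 52 and 64 in MiSeq oxidized libraries, so the MiSeq oxidized libraries were the least precise.

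NextSeq control replicate 3, the control from passage 4, stood apart. Over the 230 positions, Spearman's rho was 0.99 between control replicates 1 and 2, and 0.42 between each of them and replicate 3. Counts at A or U made up 61.0% of the counts outside known sites in control replicate 3, against 30.7% and 30.9% in replicates 1 and 2. Results that rest on this library are given with and without it. The MiSeq oxidized replicates differed by no more than sampling noise in steps of 50, with a ratio of chi-square to degrees of freedom of 0.915 in the stretch and 1.05 over both rRNAs. Counted as 1 sample, they gave the same number of called known sites (9) and 6 called positions outside known sites in place of 3, although the spread then came from the 2 controls alone. NextSeq control replicates 1 and 2 differed little more than that (a ratio of 1.10 in the stretch), and summed to 1 sample the number of called known sites was again 11, with U4497 at an adjusted p of 0.106. Oxidized replicates 2 and 3 were as close (0.766 in the stretch) but come from different passages, and were kept apart.

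In the oxidized libraries most counts of the stretch lay on the known sites, more so on the NextSeq than on the MiSeq. On the NextSeq, the 12 known sites took 94.84%, 94.71% and 94.997% of the counts of the stretch in oxidized replicates 1, 2 and 3, against 0.476%, 0.472% and 0.858% in the control libraries. On the MiSeq they took 69.1% and 69.5% in the oxidized libraries, against 0.491% and 0.660% in the control libraries. The groups did not overlap in either experiment. The mean share was 94.8% ± 0.14 (SD, n = 3) against 0.602% ± 0.22 (SD, n = 3) on the NextSeq (exact two-sided permutation test, p = 0.1, the smallest that 3 against 3 allows), and 69.3% ± 0.24 (SD, n = 2) against 0.576% ± 0.12 (SD, n = 2) on the MiSeq (exact two-sided permutation test, p = 0.333, the smallest that 2 against 2 allows). The stretch as a whole held 6.92% ± 0.17 of the counts of the NextSeq oxidized libraries and 7.09% ± 1.72 of the control libraries, of which replicate 3 had 9.07%. On the MiSeq the stretch held 14.2% ± 0.40 of oxidized and 2.58% ± 0.51 of control counts.

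**Figure D1:**
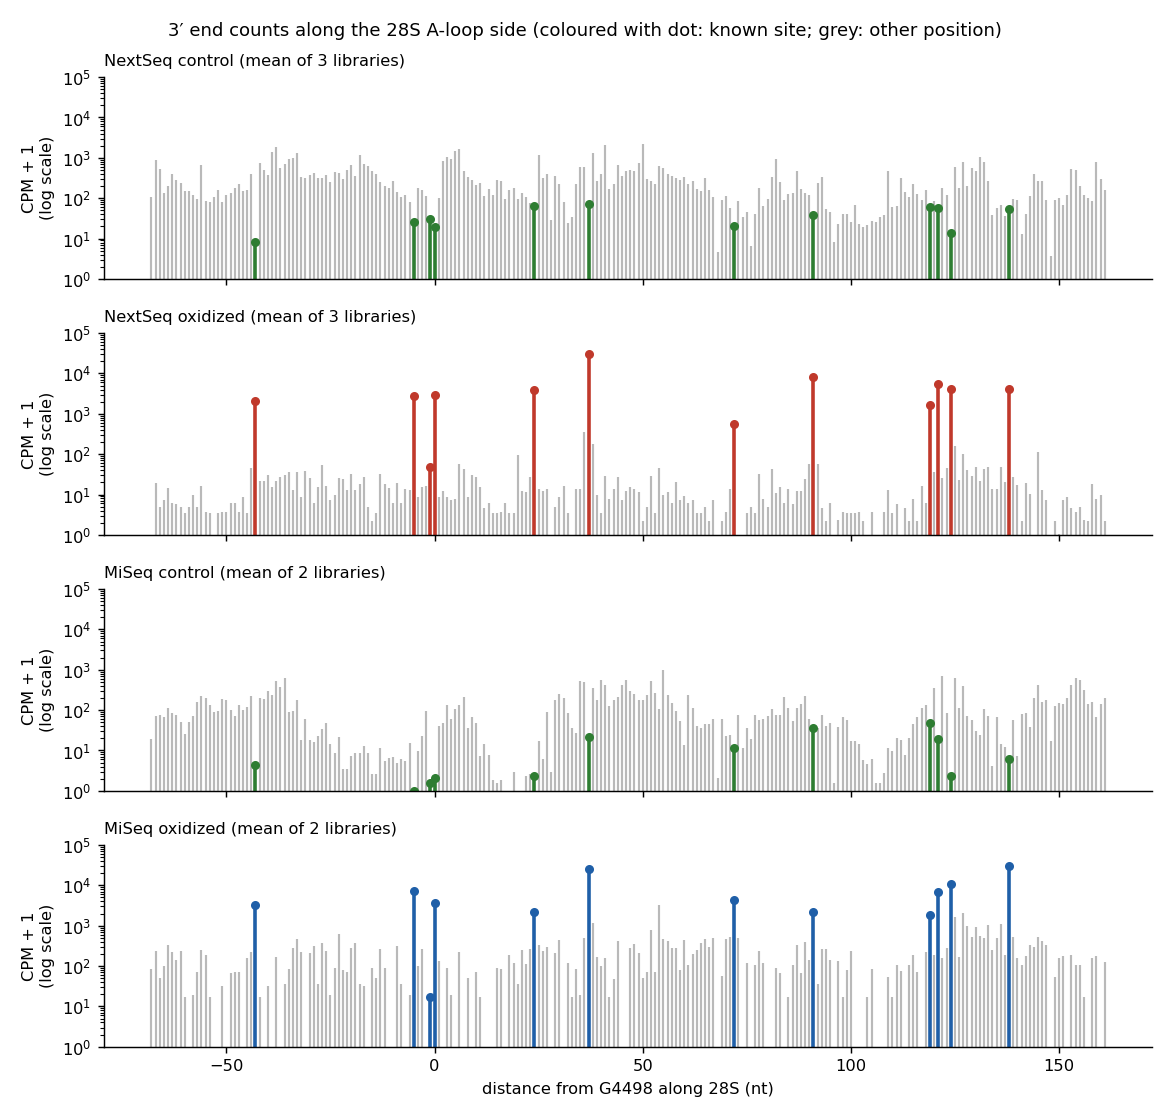
Mean CPM + 1 on a log axis at each of the 230 positions, against the distance in nt from G4498, in NextSeq control, NextSeq oxidized, MiSeq control and MiSeq oxidized libraries. Known sites are coloured bars with a dot and other positions are grey. In the NextSeq oxidized libraries 11 of the 12 known sites rise above the other positions, whereas U4497, just before 0, does not. In the MiSeq oxidized libraries some other positions reach the level of the lower known sites, and in the control libraries most known sites lie below their neighbours.

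Each position was then compared between oxidized and control libraries with the quasi-likelihood test of edgeR (Benjamini-Hochberg adjustment over both rRNAs), and called when its log2 fold change was above 7 and its adjusted p under 0.05. On the NextSeq, 11 of the 12 known sites were called and 0 of the 218 other positions, against 1.53% called among all positions tested. Of those 218, 16 were higher in oxidized libraries at an unadjusted p under 0.05, against 4.93% of all positions, and DESeq2 also called 0. The exception was U4497. Without control replicate 3 all 12 were called, U4497 included. On the MiSeq, 9 of the 12 known sites and 3 of the 217 other positions tested were called, against 2.36% among all positions. The uncalled known sites were U4497, A4589 and G4617. Of the 94 known sites elsewhere in 18S and 28S, 86 were called on the NextSeq and 77 on the MiSeq. The 12 known sites had a median log2 fold change of 10.92 on the NextSeq and 10.31 on the MiSeq, against -2.25 and -4.76 over all positions tested. With all libraries, no position of either rRNA reached the adjusted p of 0.0001 that the study applied, since the smallest adjusted p was 0.0004 on the NextSeq and 0.00555 on the MiSeq. Several known sites of the stretch did so by the same test without NextSeq control replicate 2 or 3, with C4535 at 9.92e-06 and 7.83e-05. DESeq2's Wald test called 11 known sites of the stretch on the NextSeq and 9 on the MiSeq at the limit of 0.0001, against 1.47% and 2.34% of all positions tested.

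The fold changes depended on the scaling. TMM compares the bulk of positions, and scaling by the library totals alone lowered the median log2 fold change of all NextSeq positions by a further 4.02, to -6.26, and that of the MiSeq positions by 0.22, to -4.98. With totals alone 5 of the 12 known sites passed a log2 fold change of 7 on the NextSeq, 11 of the 12 remained higher in oxidized libraries at an adjusted p under 0.05, and the median log2 fold change was 6.71. On the MiSeq 9 were called with totals alone and the median was 10.06, so which experiment had more calls and the higher median turned with the scaling. The 6 sites whose NextSeq calls ended with totals alone were G4493 (6.83), A4522 (5.99), A4570 (4.88), G4617 (4.78), U4619 (6.59) and G4636 (6.31). Over all positions, 203 were higher and 1262 lower at an adjusted p under 0.05 on the NextSeq with TMM (13.9% higher), 95 and 4332 with totals alone (2.15% higher), and 117 and 2 when the counts were first divided by 50 (98.3% higher). Mean levels in CPM are therefore given beside most log2 fold changes, which use TMM.

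The neighbouring A-loop sites differed widely in level. G4498, the downstream neighbour, rose in the oxidized libraries of both experiments. It had 34900, 35200 and 41600 counts in NextSeq oxidized replicates 1 to 3 and 1250, 1700 and 1400 in the controls. This is 2846 CPM ± 201 (SD, n = 3) against 18.9 CPM ± 1.9 (SD, n = 3), with a log2 fold change of 11.14 ± 0.75 (SE, adjusted p = 0.000855). Its MiSeq counts were 6100 and 4900 against 100 and 0. The summed shares gave a ratio of 2802 with a 95% interval of 767 to 23284, and the log2 fold change was 11.85 ± 2.70 (SE, adjusted p = 0.0248). G4498 was called in both experiments, although its MiSeq log2 fold change ranged from 10.87 to 18.65 when a library was left out.

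U4497, the upstream neighbour, was the lowest known site of the stretch in the oxidized libraries of both experiments. It had 600 counts in each NextSeq oxidized library and 300, 300 and 6000 in control replicates 1 to 3. The oxidized level was 46.0 CPM ± 2.6 (SD, n = 3), and the control levels, 3.71 to 79.5 CPM, lay on both sides of it. The log2 fold change was 5.16 ± 1.26 (SE, adjusted p = 0.0371) with TMM but 0.66 with totals alone (adjusted p = 0.648), and 7.19 with TMM without control replicate 3 (adjusted p = 0.00158). Replicate 3 of both NextSeq groups shares passage 4, and with the replicate number as a block the log2 fold change was 6.20 (adjusted p = 0.0597). The adjusted p was also above 0.05 when any single NextSeq library other than control replicate 3 was left out (0.0574 to 0.105). The same held with counts divided by 50 (0.0883). The log2 fold change was 4.69 or more with a library left out and 4.51 with counts divided by 50. Whether U4497 passed 0.05 was thus not stable, and neither was its size, given 0.66 with totals alone. On the MiSeq U4497 had 50 and 0 counts in the oxidized and 50 and 0 in the control libraries, under the 150 counts that a count of 0 allows, and no difference was detectable at this depth. The count at U4497 was 1.72%, 1.70% and 1.44% of that at G4498 in NextSeq oxidized replicates 1 to 3, and 0.820% and 0% in the MiSeq oxidized libraries. In the NextSeq controls it was 24%, 17.6% and 429%. The other pair of neighbouring known sites in 28S is U4226 and G4227. There the upstream site had 60.2%, 57.9% and 61.1% of the downstream count in the NextSeq oxidized libraries. The NextSeq oxidized ranges of the pairs thus lay far apart. In the NextSeq controls the ratio of U4226 to G4227 was 81.7%, 141% and 52.2%, a range that spans its oxidized values. The study states that the upstream of 2 adjacent sites goes undetected where the downstream one is fully methylated. These ratios therefore do not measure methylation of the upstream sites. How far the downstream sites are methylated was not tested. On the MiSeq U4226 had 0 counts in both oxidized libraries, with 1853 and 1350 at G4227.

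G4493, 4 nt upstream of the pair, rose in both experiments. It had 28950, 38050 and 42750 counts in NextSeq oxidized against 950, 800 and 3850 in control libraries, which is 2801 CPM ± 532 (SD, n = 3) against 24.7 CPM ± 22.9 (SD, n = 3), with a log2 fold change of 11.07 ± 0.83 (SE, adjusted p = 0.00122). Its MiSeq counts were 11400 and 9250 in the oxidized libraries and 0 in both controls. Against a floor of 3 steps over the summed controls, and with the oxidized counts taken as exact, G4493 was at least 3507-fold higher in the MiSeq oxidized libraries. With the counting error of both groups, the lower 95% limit of the ratio was 2839.

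A4522 and C4535 follow downstream. C4535, listed with the snoRNAs U35A and U35B, had the most counts of the stretch on the NextSeq. It had 392500, 365600 and 418250 counts in the oxidized and 4100, 4150 and 8150 in the control libraries, or 29977 CPM ± 491 (SD, n = 3) against 71.9 CPM ± 31.3 (SD, n = 3), with a log2 fold change of 12.77 ± 0.51 (SE, adjusted p = 0.0004). C4535 had 41100 and 33500 counts on the MiSeq against 1200 and 450, with a log2 fold change of 10.48 ± 0.61 (SE, adjusted p = 0.00693). A4522, listed with U29, was called in both experiments, but its value moved with control replicate 3 and with the scaling. It had 50700, 48350 and 55550 counts in NextSeq oxidized libraries, and 250, 450 and 13400 in the controls. Its mean level was 3940 CPM against 62.2 CPM. The log2 fold change was 10.54 ± 1.79 (SE, adjusted p = 0.0359), 13.41 without control replicate 3, and 5.99 with totals alone. On the MiSeq A4522 had 3400 and 2900 counts against 50 and 50 (2155 against 1.39 CPM), a ratio of summed shares of 1605 with a 95% interval of 435 to 13397, and a log2 fold change of 10.86 ± 0.38 (SE, adjusted p = 0.00594).

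C4455 is the most upstream known site of the stretch and was called in both experiments. It had 24600, 26753 and 29656 counts in NextSeq oxidized and 350, 350 and 1000 in control libraries (2067 against 7.47 CPM), with a log2 fold change of 12.26 ± 0.74 (SE, adjusted p = 0.000601). In the MiSeq libraries it had 5103 and 4200 counts against 150 and 100 (3178 against 3.35 CPM), with a log2 fold change of 10.14 ± 0.32 (SE, adjusted p = 0.00555). With so few control counts, the ratio of summed shares was 948 with a 95% interval of 399 to 2953. Reads at C4455 cannot be assigned to one 28S copy or the other.

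A4570 and A4589 lie between C4535 and the sarcin-ricin motif, and in the oxidized libraries A4570 had more and A4589 fewer CPM on the MiSeq than on the NextSeq. A4570, listed with U63, had 6600, 7000 and 8350 counts in NextSeq oxidized libraries (559 CPM ± 56, SD, n = 3) and 150, 100 and 4050 in the controls. Its log2 fold change was 9.42 ± 1.68 (SE, adjusted p = 0.0359), and 12.04 without control replicate 3. On the MiSeq A4570 had 6650 and 6200 counts (4409 CPM ± 241, SD, n = 2) against 650 and 200, with a log2 fold change of 8.92 ± 0.72 (SE, adjusted p = 0.00693). A4589, listed with SNORD119, had 98650, 101300 and 116200 counts in NextSeq oxidized libraries (8059 CPM ± 540, SD, n = 3) and 1550, 2000 and 4950 in the controls, with a log2 fold change of 11.90 ± 0.63 (SE, adjusted p = 0.0004). On the MiSeq it had 4150 and 2500 counts (2246 CPM ± 565, SD, n = 2) against 1050 and 1400. There its log2 fold change was 6.28 ± 0.51 (SE, adjusted p = 0.00693), higher in the oxidized libraries but under the limit of 7.

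The cluster downstream of the sarcin-ricin motif holds G4617, U4619, G4622 and, 14 nt on, G4636. G4617 had the smallest ratio of the cluster. It had 18750, 20100 and 24300 counts in NextSeq oxidized and 4550, 4450 and 4400 in control libraries (1609 against 58.7 CPM), with a log2 fold change of 8.69 ± 0.72 (SE, adjusted p = 0.00168). In the MiSeq libraries it had 2350 and 2900 counts against 1650 and 1750 (1820 against 47.5 CPM), with a log2 fold change of 5.53 ± 0.41 (SE, adjusted p = 0.00693), under the limit. U4619 was called in both experiments. It had 77250, 66550 and 74000 counts against 2400, 2650 and 8050 on the NextSeq (5551 against 57.5 CPM), with a log2 fold change of 10.77 ± 0.66 (SE, adjusted p = 0.000601). On the MiSeq U4619 had 11250 and 9250 counts against 950 and 450 (7002 against 18.2 CPM), with a log2 fold change of 8.83 ± 0.44 (SE, adjusted p = 0.00693).

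G4622 was called in both experiments and had few control counts. It had 60400, 46050 and 51850 counts in NextSeq oxidized and 700, 1250 and 1000 in control libraries (4032 against 12.8 CPM), with a log2 fold change of 12.23 ± 0.78 (SE, adjusted p = 0.000706). On the MiSeq it had 17050 and 14750 counts against 50 and 50 (10882 against 1.39 CPM), a ratio of summed shares of 8101 with a 95% interval of 2233 to 67038, and a log2 fold change of 13.20 ± 0.38 (SE, adjusted p = 0.00555). G4636, listed with SNORD121A and SNORD121B, had 52706, 51806 and 58105 counts in NextSeq oxidized and 4406, 5151 and 2450 in control libraries (4146 against 52.3 CPM), with a log2 fold change of 10.13 ± 0.88 (SE, adjusted p = 0.00205). On the MiSeq it had 48800 and 40800 counts against 450 and 0 (30621 against 5.11 CPM), with a log2 fold change of 12.73 ± 3.42 (SE, adjusted p = 0.0378), which ranged from 11.73 to 21.68 when a library was left out.

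**Figure D2:**
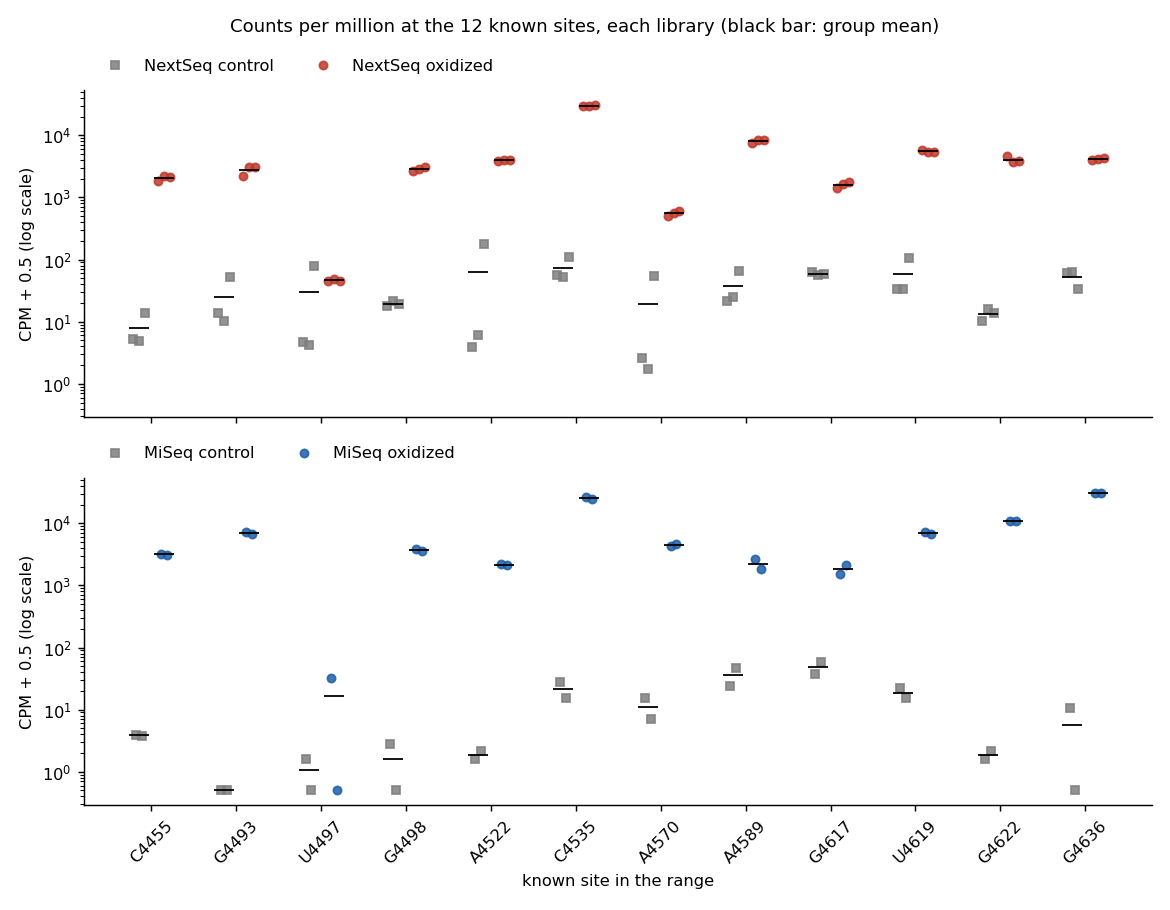
CPM + 0.5 on a log axis in every library at the 12 known sites, in order along 28S, for the NextSeq (top) and MiSeq (bottom) libraries. Squares are control and circles oxidized libraries, and black bars are group means. Every oxidized library lies above every control library at 11 of the 12 sites in both experiments, and the groups overlap at U4497.

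The mean NextSeq control level moved by over 1.5 times without control replicate 3 at 7 of the 12 known sites. It was then 4.58 CPM at C4455, 11.5 CPM at G4493, 3.92 CPM at U4497, 4.504 CPM at A4522, 1.65 CPM at A4570, 23.0 CPM at A4589 and 32.9 CPM at U4619, in each case lower than with it. The log2 fold change of G4493 was 11.57 without that library.

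Every oxidized library lay above every control library in CPM at 11 of the 12 known sites in both experiments, against 1.65% of all positions tested on the NextSeq and 14.4% on the MiSeq. Of the other positions of the stretch, 0 of 218 did so on the NextSeq, and 98 of 217 on the MiSeq. The reverse, every oxidized library below every control library, was found at 196 of these 218 positions on the NextSeq and 66 of 217 on the MiSeq, against 85.6% and 71.7% of all positions tested.

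The known sites differed in level by orders of magnitude within the oxidized libraries. Linkers ligate to different 3′-ends with unequal efficiency, so these levels describe counts and do not rank the sites by how far they are methylated. On the NextSeq C4535 took 45.7% of the counts at the 12 known sites, followed by A4589 with 12.3% and U4619 with 8.46%. G4636 (3982 to 4243 CPM), G4622 (3746 to 4563 CPM) and A4522 (3830 to 4056 CPM) came next and their ranges over the libraries overlapped, as did those of G4498 (2636 to 3038 CPM) and G4493 (2187 to 3122 CPM). C4455, G4617 and A4570 were lower, and U4497 held 0.0701%. On the MiSeq G4636 led with 31.1%, followed by C4535 with 25.8% and G4622 with 11.04%. There G4493 and U4619 overlapped (6833 to 7266 and 6833 to 7171 CPM), as did A4589 (1847 to 2645 CPM), A4522 (2142 to 2167 CPM) and G4617 (1498 to 2142 CPM) in part, and U4497 was lowest with 0.0162%. Spearman's rho between the mean levels of both experiments was 0.56 over the 12 sites, which is given as a description since the sites share libraries.

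Whether the response to oxidation differed between the experiments was tested with an interaction contrast over all 10 libraries. At an adjusted p under 0.05, 2 of the 12 known sites differed, G4493 and A4589, against 8.2% of all positions tested. At an unadjusted p under 0.05 there were 6, against 26.9% of all positions, and DESeq2 called 6 at an adjusted p under 0.05, against 27.6%. A4589 rose more on the NextSeq, by 5.23 ± 0.67 on the log2 scale (SE, adjusted p = 0.0125), and by 1.75 with totals alone (adjusted p = 0.232). G4493 rose more on the MiSeq, with a difference of -10.20 ± 1.05 (SE, adjusted p = 0.0125), a size that depends on how the 2 MiSeq controls at 0 are treated: it was -4.69 with counts divided by 50 (adjusted p = 0.0623). Leaving out either MiSeq control changed the sizes little but ended both calls: the difference was 5.57 and 4.76 at A4589 and -10.13 and -10.19 at G4493 without control replicate 1 and 2, with an adjusted p of 0.0702 and 0.0676 at both sites. Without NextSeq control replicate 3, 9 of the 12 sites differed, and with the replicate number as a block 0 did (smallest adjusted p 0.212). The experiments differ in instrument, passage and input, which cannot be told apart.

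**Figure D3:**
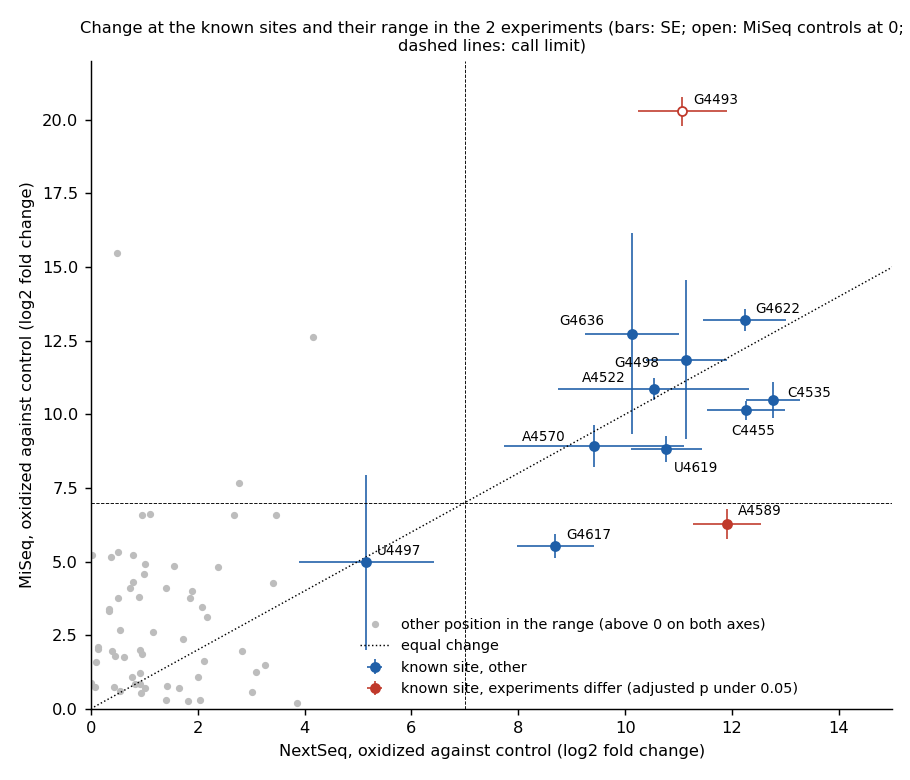
Log2 fold change of oxidized against control libraries on the NextSeq (horizontal) and the MiSeq (vertical) at the known sites, with bars of 1 SE, and at the other positions of the stretch that lie above 0 on both axes (grey). G4493 and A4589 (red) differed between the experiments at an adjusted p of 0.0125. The open circle marks G4493, whose MiSeq controls were at 0, and U4497 is the only known site left of the dashed line at 7.

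Outside the known sites, 3 positions were called, all on the MiSeq and all just upstream of A4522. G4519 had 500 and 250 counts, A4516 had 300 and 250 and C4518 had 50 and 50 in the MiSeq oxidized libraries, with 0 in both controls. The counts at C4518 are 1 step in each library and lie under the 150 counts that a count of 0 allows. With the counting error of both groups, the lower 95% limit of its ratio was 4.78, from 2 oxidized steps in all. Against a floor of 3 steps over the summed controls, and with the oxidized counts of 15 and 11 steps taken as exact, G4519 was at least 127-fold and A4516 at least 93.4-fold higher in the MiSeq oxidized libraries. With the counting error of both groups the lower 95% limits were 91.4 and 63.9, and leaving out MiSeq control replicate 2 ended all 3 calls. The loss lay in the adjusted p, not in the fitted log2 fold changes, whose size is not exact with controls at 0. With a library left out these were at least 14.75 at G4519, 14.33 at A4516 and 11.88 at C4518. On the NextSeq G4519 had 200, 150 and 100 counts against 8150, 7750 and 15300, and A4516 had 50, 0 and 50 against 2150, 1550 and 32500, so every oxidized library lay below every control library in CPM at both positions. The largest NextSeq log2 fold changes outside known sites were 4.15 ± 0.73 at C4518 (SE, adjusted p = 0.0359), 3.86 ± 1.37 at A4534 (SE, adjusted p = 0.0846) and 3.46 ± 0.66 at A4634 (SE, adjusted p = 0.0359). C4518 had 850, 1600 and 1150 counts in NextSeq oxidized libraries and 3400, 4400 and 13900 in the controls. A4534, directly upstream of C4535, had 4300, 5050 and 4850 counts against 3200, 3350 and 126200. A4634 had 651, 550 and 600 counts against 4504, 4553 and 5901, and in CPM its oxidized libraries lay below every control library (means of 45.9 against 65.5 CPM), opposite to its log2 fold change with TMM. In CPM the oxidized and control ranges of C4518 and A4534 overlapped, and their means also ran opposite to the log2 fold change (92.8 against 95.1 CPM and 363 against 586 CPM). Value and order rest on control replicate 3: without it A4534 was at 6.73 (adjusted p = 0.000594), G4454 at 5.42 (adjusted p = 0.00901) and A4440 at 4.63 (adjusted p = 0.0229), all above C4518 (adjusted p = 0.0132). With no limit on the log2 fold change, 9 of 218 other positions on the NextSeq and 72 of 217 on the MiSeq were higher in oxidized libraries at an adjusted p under 0.05, against 3.02% and 10.6% of all positions tested. All 9 of these NextSeq positions had a lower mean CPM in oxidized than in control libraries, so they were higher only relative to the bulk of positions that TMM scales by, whereas the 72 on the MiSeq had a higher mean CPM. In the other direction 15 and 41 were lower, against 18.8% and 51.6%. The NextSeq counts depended on the scaling and on 1 library. With totals alone 0 were higher and 141 lower, against 1.41% and 64.5% of all positions. With counts divided by 50 there were 0 of either, against 1.75% and 0.0299%, and without control replicate 3 there were 30 higher and 35 lower, against 7.04% and 25.3%. On the MiSeq with totals alone 69 were higher and 45 lower, against 9.82% and 53.2%. Among other positions A4552, picked after its values were seen, had the highest oxidized level on the MiSeq, with 4750 and 4650 counts (3231 CPM) against 4700 and 3350 in the controls (108 CPM). That mean level is above those of A4589, A4522 and G4617 and overlaps that of C4455 (3102 to 3253 CPM), while on the NextSeq A4552 had 500, 400 and 850 counts against 23850, 26950 and 93201.

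The oxidized signal at known sites lay largely on the site itself. Over the 10 known sites outside the neighbouring pair, the position directly upstream had a median of 0.671% and the position directly downstream 0.596% of the site's own count in NextSeq oxidized libraries. On the MiSeq these medians were 4.72% and 3.40%. Averaged over the libraries, the highest NextSeq values were 2.22% upstream, at A4570, and 3.99% downstream, at G4622. On the MiSeq the highest averages were 12.8% upstream, at G4617, and 15.7% downstream, at A4522.

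Benzonase does not cut after a 2′-O-methylated nucleotide, so a methylated site is also expected to lack ends in the control libraries. This control gap was measured as the count at a site divided by the median of its flanks, the nearest 10 positions upstream and 10 downstream that carry no known site, and is 1 where the site is like its flanks. On the NextSeq 9 of the 12 known sites lay below 0.5 in every control library, compared with 4.59% of the other positions of the stretch, 51 of the 94 known sites elsewhere, and 5.42% of all other positions. Without control replicate 3, 11 of the 12 did so, and the other shares were higher too, at 31.7% of the other positions of the stretch, 72 of the 94 known sites elsewhere, and 28.3% of all other positions. On the MiSeq 9 of 12 did so, compared with 19.3% of the other positions of the stretch, 80 of 92 known sites elsewhere with a value, and 15.5% of all other positions. C4455 had among the deepest gaps, at 0.0302, 0.0284 and 0.0247 in NextSeq controls and 0.0210 and 0.0207 in MiSeq controls. G4622 was at 0.0483 to 0.0808 on the NextSeq and at 0.0143 and 0.0244 on the MiSeq, and G4493 was at 0 in both MiSeq controls. Both A-loop sites had a gap in all 5 control libraries. U4497 was at 0.0424, 0.0353 and 0.200 on the NextSeq and 0.0357 and 0 on the MiSeq, and G4498 at 0.177, 0.200 and 0.0466, and 0.0714 and 0. U4497 was thus as low in the controls as the called sites, although it had few counts in the oxidized libraries.

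Of the sites without a gap in every control library, A4522 was shared by the experiments and the others were not. On the NextSeq they were A4522 and U4619, which were at 0.847 and 0.733 in control replicate 3 only, and G4636, which was at 0.677 and 0.705 in replicates 1 and 2 but at 0.249 in replicate 3. On the MiSeq they were A4522 (0.5 and 0.667), A4589 (0.404 and 0.683) and G4617 (0.647 and 0.959). At A4522 the MiSeq flanks themselves held few counts, since the 11 positions from 4512 to 4522 had at most 100 counts each in both MiSeq controls. G4617 and A4589 also had MiSeq log2 fold changes under 7, as did U4497, whose control gap was deep, whereas A4522 was called.

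**Figure D4:**
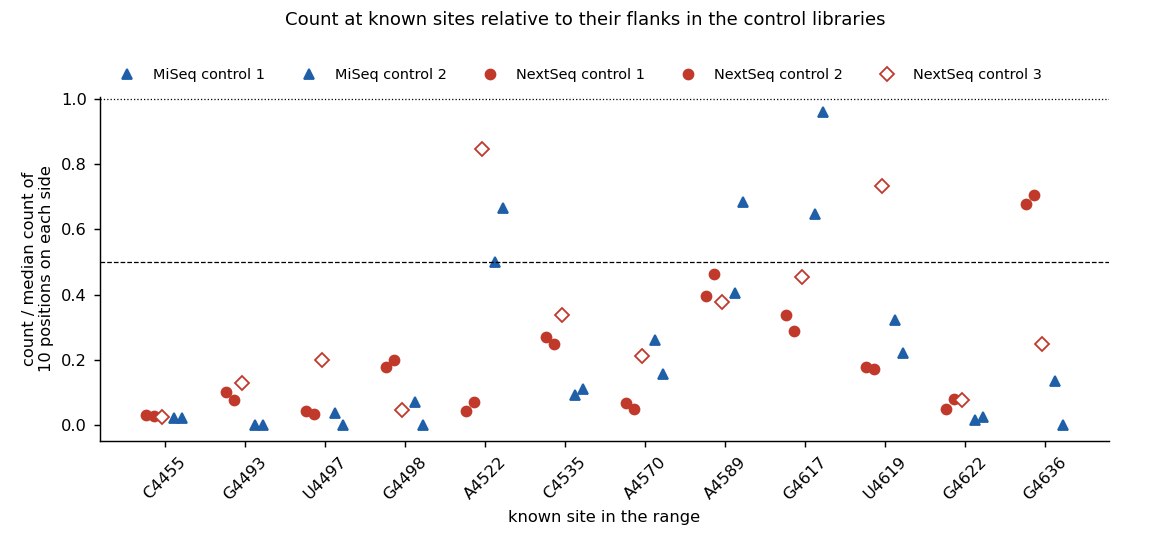
Count at each known site divided by the median of its flanks (10 positions each way) in every control library. Circles and the open diamond (replicate 3) are NextSeq and triangles MiSeq controls. The dashed line marks 0.5 and the dotted line 1, where a site equals its flanks. Most sites lie below 0.5, and A4522 and U4619 lie above it on the NextSeq in replicate 3 alone.

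The listed guide snoRNAs were set beside the sites, since a site rests on a stretch of base-pairing. For 7 of the 12 sites the sequence of a listed snoRNA, taken from the annotated transcripts for hg19, held a perfect complement of at least 9 nt over the site. The older names HBII-210, U63, HBII-296A/B, HBII-240 and U78 in the list were matched by hand to the SNORD symbols printed below. Guides of C4455, U4497, G4498 and A4522 were not analysed here, so nothing is said of their pairing, and for C4535 the longest perfect complement found was 5 nt. The guides are printed 5′ to 3′ with the base opposite the methylated nucleotide in capitals, to show the shared place of that base in the A-loop side and the overlap of the guides in the G4617 to G4622 cluster.
G4493, SNORD69: caaucCaac
A4570, SNORD63: caacacaUcau
A4589, SNORD119: agcaggaUuac
G4617, SNORD91A: gucugaaCcug
G4617, SNORD91B: aaaugucugaaCcug
U4619, SNORD72: aaaugucugAac
G4622, SNORD78: caaauguCuga
G4636, SNORD121A and SNORD121B: ccaagcaCaua
In all of these but SNORD72 the capital base is the fifth upstream of the CUGA box D, counted in the snoRNA. The guides for G4617, U4619 and G4622 pair with overlapping rRNA, from 4614 to 4628, 4617 to 4628 and 4619 to 4629, and these 3 sites had oxidized levels of 1609 CPM ± 180, 5551 CPM ± 247 and 4032 CPM ± 460 on the NextSeq (SD, n = 3). SNORD91A and SNORD91B lie on chromosome 17 (2233474 to 2233664 and 2232310 to 2232531), SNORD72 on chromosome 5 (40832758 to 40832837) and SNORD78 on chromosome 1 (173834760 to 173834824), all on the minus strand. SnoRNA levels were not measured here.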

How the data were processed

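RibOxi-seq libraries of PA1 cells were grouped by GEO's labels. The authors deposited, for each library, a raw count for each position of 18S and 28S rRNA, of alignments on the sense strand that end there with their 3′-end. Per the labels and the methods, the authors trimmed reads with cutadapt 1.12, collapsed duplicates with an in-house script, aligned with TopHat2 2.1.1 to hg19 and an annotation with 2 copies of each rRNA, and used SAMtools 0.1.19 and BEDtools. Tables of the authors' own DESeq2 comparisons (fold changes and p-values) and the deposited lists of called positions were not used.

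The methods describe numbers of reads, but counts were mostly multiples of 50, and the reason is not given in the sources used here. They may be sums of an alignment score and not of reads, which was not tested. In the stretch, 31.4% of values above 0 were off these steps at the 53 positions shared with the second 28S copy and 10.9% after its end, with 0.0332% and 0.0107% of the counts. Duplicates collapsed by randomer and several alignments of one read could both change a count.

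Every position with a count above 0 in some library of an experiment was fitted with edgeR 4.0.16 in R 4.3.3 (TMM, quasi-likelihood test, Benjamini-Hochberg adjustment over both rRNAs), for NextSeq and MiSeq separately, and together for the interaction. The standard error is the log2 fold change over the square root of the F statistic. The position-wise fits were also run on simulated data, the outcome of which is not reported here. DESeq2 1.42.0 was an alternative, as were RLE, totals alone, low-count filters, counts divided by 50, other thresholds, a replicate block and leaving out each library. Intervals for ratios of summed steps are exact 95% intervals.

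Positions named in the text are all known sites of the stretch, other positions called there (at most 5 per experiment), the 3 other positions with the highest NextSeq log2 fold change, and the other neighbouring pair in 28S. A4552, G4454 and A4440 were added after their values were seen. Known sites came from the study's supplementary list of sites already annotated. The stretch, lists and tests were chosen with earlier results of these data known.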

Additional observations from a re-analysis of the deposited data

Results flagged for a closer look

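The response of 2 known sites to oxidation differed between the NextSeq and the MiSeq libraries by the interaction test. At G4493 the NextSeq minus MiSeq difference of the log2 fold changes was -10.20 (adjusted p = 0.0125, edgeR's quasi-likelihood test), with both MiSeq controls at 0 counts. At A4589 it was 5.23 (adjusted p = 0.0125), where the mean oxidized level was 8059 CPM on the NextSeq and 2246 CPM on the MiSeq, and the mean control level 37.2 and 34.9 CPM. The interaction depends on the scaling, since G4493 and G4622 differed with totals alone (-14.07, adjusted p = 0.00842, and -4.63, adjusted p = 0.00903). The differences at G4493 are fitted over MiSeq controls at 0, so their size is not exact. With counts divided by 50 the difference at G4493 was -4.69, and only A4589 differed at an adjusted p under 0.05. The instrument, the passage and the input differ together between the experiments and cannot be told apart. Groups held fewer than 4 samples, so no outlier test was run within a group. NextSeq control replicate 3 stood apart in the comparison of replicates given above.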

How the results depend on the processing

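The known sites called numbered 11 to 12 on the NextSeq and 9 on the MiSeq whichever library was left out (with a MiSeq library left out, its group's lone sample is assumed to vary like the other group), and the NextSeq called no other position of the stretch. With totals alone 5 known sites were called on the NextSeq and their median log2 fold change was 6.71. That median was 10.73 to 11.77 when a library was left out, the highest without control replicate 3, and 11.73 with passage 6 libraries only, an alternative chosen after seeing the data. At an adjusted p under 0.0001, 0 known sites and 0 others were called in either experiment by edgeR with all libraries. Several known sites passed that limit without NextSeq control replicate 2 or 3. By the same quasi-likelihood test, C4535 then had an adjusted p of 9.92e-06 and 7.83e-05. The other positions called on the MiSeq, 3 in the report, numbered 6 with DESeq2, 6 with the oxidized replicates summed (chosen after seeing the data), 8 above a log2 fold change of 6, and 0 to 7 when a library was left out (0 without control replicate 2). With no limit on the fold change, also chosen after seeing the data, there were 9 on the NextSeq (0 with totals alone) and 72 on the MiSeq.

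The known sites that differed between the experiments, 2 in the report, numbered 4 with RLE size factors, 1 with counts divided by 50, 6 with DESeq2, and 0 to 9 when a library was left out (0 without either MiSeq control, 9 without NextSeq control replicate 3). The MiSeq log2 fold change of U4497 became -6.90 without oxidized replicate 1 (adjusted p = 0.571). The share of the stretch's counts at known sites in the oxidized libraries was 96.5% on the NextSeq and 74.3% on the MiSeq with the positions directly beside them. In the control libraries that share was 8.07%, 8.23% and 12.2% on the NextSeq and 13.0% and 16.7% on the MiSeq. The causes of these changes were not tested, apart from the fewer libraries or the threshold itself.

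The labels tie replicate 3 of both NextSeq groups to passage 4 but pair no other numbers, and same-numbered libraries did not deviate together throughout (correlations of the deviations of same-numbered libraries 0.224, -0.218 and 0.101 on the NextSeq, and -0.021 on the MiSeq). With the replicate block, 11 known sites were called on the NextSeq, and 0 known sites and 0 other positions on the MiSeq, where 1 residual degree of freedom remained, and 0 known sites differed between the experiments. Depth limits the MiSeq oxidized libraries most, where a count of 0 allows a level of up to 95.6 CPM in replicate 1 and 111 CPM in replicate 2.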

Other observations

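Several features of the control libraries belong in no comparison above. The 12 positions of the sarcin-ricin motif held 68213, 75979 and 54668 counts in NextSeq control replicates 1, 2 and 3, with 49301 and 54150 at a single position in replicates 1 and 2 but at most 8700 at any position in replicate 3. In the oxidized libraries the motif held 550, 450 and 300 counts on the NextSeq and 900 and 600 on the MiSeq, against 3655 and 3603 in the MiSeq controls. These counts are not scaled to the library totals, which were 1568883 and 1353768 in the MiSeq oxidized and 44061905 and 30392418 in the MiSeq control libraries. As a share of the library total, the motif was lower in every oxidized than in every control library on the NextSeq. On the MiSeq it was higher in both oxidized libraries than in both controls.

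The run from 4512 to 4522, which ends with A4522, had a median of 0 and 50 counts in the MiSeq controls, where the positions of the stretch outside known sites had medians of 2800 and 1750. The same run had medians of 3400, 4400 and 14050 counts in the NextSeq controls, where the other positions had medians of 6727, 7377 and 22180. The run was delimited by its low MiSeq control counts (at most 100 at each position), so it is no independent observation that the 3 MiSeq calls outside known sites lie in it.

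Counts at A or U outside known sites made up 46.2% and 46.4% in the MiSeq controls, 61.7% and 60.5% in the MiSeq oxidized libraries, and 59.4%, 57.5% and 62.3% in the NextSeq oxidized libraries, where A and U are 52.3% of these positions. NextSeq control replicates 1 and 2, at 30.7% and 30.9%, were the libraries below that share by the most. Whether cutting preference, passage or handling moves with these values was not tested.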
